A study of Mus musculus with 46 samples.

Results

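RNA-seq read counts of 9 chemokine genes were followed in microglia, the macrophages that reside in the mouse brain: Ccl2, Ccl3, Ccl4, Ccl6, Ccl9, Ccl12, Ccl24, Cxcl10 and Cxcl16. They were taken by gene name, and each had 1 row among the 54134 genes of the count table, so 9 of 9 were found. The libraries came from wild-type mice (WT, 22 libraries) and 5xFAD mice (labelled AD, 24 libraries), a transgenic line in which mutant human amyloid precursor protein and presenilin are driven by a neuronal promoter. The mice ate a zero fiber diet, a control diet, or HAMSAB, a high-amylose maize starch that resists digestion and carries acetate and butyrate. This gave 6 groups, with sexes as labelled: zero fiber WT (4 female and 2 male libraries), and control WT, HAMSAB WT, zero fiber AD, control AD and HAMSAB AD (4 female and 4 male libraries each). The sex genes of 1 zero fiber AD library labelled female went against its label, as given below. Age, time on the diet and the isolation method were not stated in the labels, nor whether each library was a separate mouse, so p-values reflect only the spread among the libraries, which may be technical.

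Chemokines are small secreted proteins that draw leukocytes along a gradient by binding G protein-coupled receptors. The CC and CXC classes are named for the spacing of the first cysteines of the mature protein. Microglia are known to make CC chemokines when activated by damage, amyloid or interferon. Ccl2 and Ccl12 act on CCR2 of monocytes, Ccl6 and Ccl9 on CCR1, and Ccl3 and Ccl4 are macrophage inflammatory proteins that attract monocytes and T cells. Ccl24 (eotaxin-2) acts on CCR3 of eosinophils, Cxcl10 on CXCR3 of T cells, and Cxcl16, which is made as a membrane protein, on CXCR6.

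The stretch of coding sequence that sets the class is shown for 8 of the genes, because 7 of the 9 are CC and 2 are CXC chemokines. Each run holds 30 bases of the coding strand from the GENCODE M21 transcripts (GRCm38), 5′ to 3′, with the cysteine codons in capitals.
Ccl2: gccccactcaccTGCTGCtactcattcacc
Ccl12: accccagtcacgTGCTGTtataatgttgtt
Ccl4: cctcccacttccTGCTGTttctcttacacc
Ccl6: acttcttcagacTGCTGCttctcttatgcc
Ccl9: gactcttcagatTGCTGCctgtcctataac
Ccl24: atcccctcatctTGCTGCacgtcctttatt
Cxcl10: aggacggtccgcTGCaacTGCatccatatc
Cxcl16: gtcgctggaagtTGTtctTGTgatcgtacc
The codons are adjacent in the CC genes shown and parted by 1 codon in Cxcl10 and Cxcl16. The longest exact run common to the transcripts of any pair of the 9 genes was 25 bases, in Ccl6 and Ccl9, followed by 17 in Ccl2 and Ccl12. The handling of reads matching several genes is not given in the sources used here.

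Of the members, 7 lie on chromosome 11. In GRCm38 coordinates, Cxcl16 spans 70453983 to 70459984, Ccl2 82035571 to 82037453 and Ccl12 82101845 to 82103400. The other 4 lie side by side, with Ccl9 at 83572919 to 83578636, Ccl6 at 83587882 to 83593087, Ccl3 at 83647844 to 83649355 and Ccl4 at 83662584 to 83664683. Ccl24 (135569937 to 135573049) and Cxcl10 (92346638 to 92348889) lie on chromosome 5. Genes annotated on the other strand overlap Ccl2 (Gm17268), Ccl6 (E230016K23Rik), Cxcl10 (Art3) and Cxcl16 (Zmynd15), and their reads cannot be told apart since the labels do not state whether counting used strand.

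Library depth lay between 52114 and 6950429 counts, and 44 of the 46 libraries had at least 1174514. Zero fiber AD replicate 3 held 52114 counts and 37 reads of the 9 genes, and zero fiber AD replicate 2 held 783849 counts. The library labelled zero fiber AD replicate 1, female, had 0.213 CPM (counts per 1000000 of the TMM-adjusted library size) of Xist, the X-inactivation RNA, against 653.5 to 1155 CPM in the other 23 female libraries, and 142 CPM of the Y-linked Ddx3y. Results were therefore also computed without replicates 1 and 3 of zero fiber AD. Summed CPM of 10 microglial markers such as P2ry12 and Tmem119 averaged between 29512 and 33284 in the 6 groups. In bulk samples such as these, fewer cells of a type and less RNA per cell cannot be told apart.

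Between genes, levels were compared per kilobase (kb) of exon. Over the 46 libraries Ccl12 was the most abundant, with a mean level of 353 CPM per kb, followed by Ccl6 (157), Ccl4 (96.4), Ccl9 (65.1), Ccl3 (23.3), Cxcl16 (22.96), Ccl24 (19.2), Ccl2 (15.1) and Cxcl10 (0.454). In control WT microglia the ranges of 1 SD around the mean were apart between Ccl12 (324 ± 75.1 CPM per kb) and Ccl6 (153 ± 21.8), between Ccl9 (66.7 ± 9.35) and Ccl3 (21.9 ± 11.7), and between Ccl2 (13.5 ± 9.08) and Cxcl10 (0.388 ± 0.503; SD, n = 8 for each). They overlapped for the other neighbours in that order. The order differed in zero fiber WT, where Ccl4 (61.0 CPM per kb) lay below Ccl9 (62.2) and Ccl24 (31.9) lay above Cxcl16 (20.9) and Ccl3 (18.7).

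**Figure D1:**
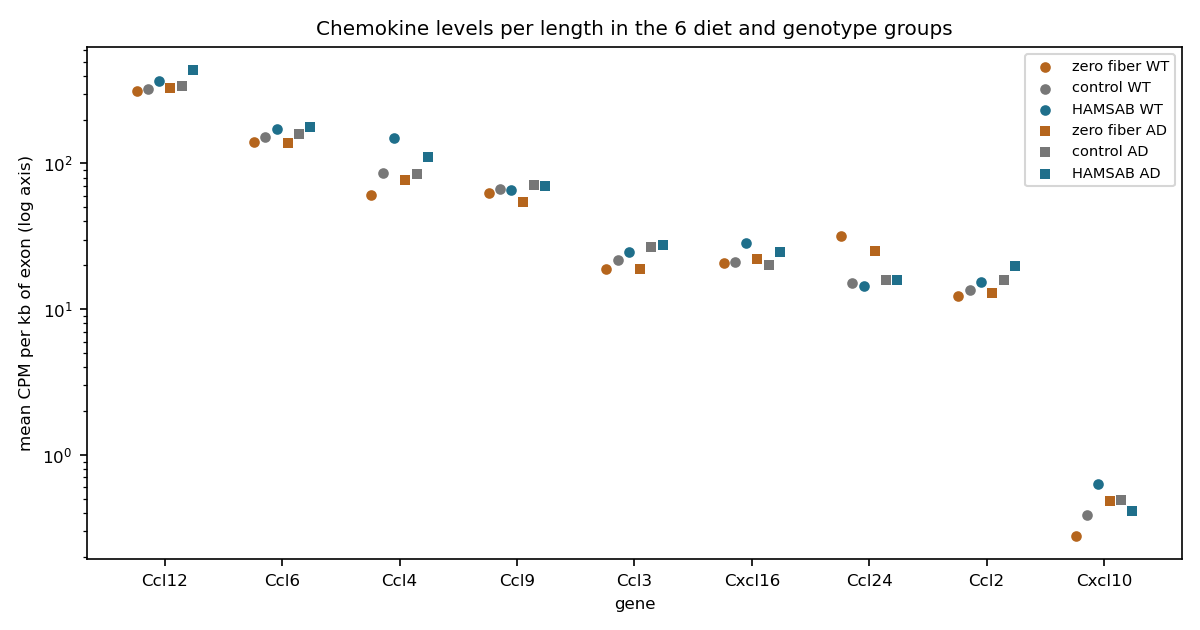
Mean CPM per kb of exon (log axis) of each gene, 1 point per diet and genotype group (6 to 8 libraries), circles for WT and squares for AD. Ccl12 is highest, Cxcl10 lies under 1 CPM per kb in every group, and the zero fiber points of Ccl24 stand above its other 4 points.

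Of the 9 members, 8 passed the filter on low counts, and Cxcl10 did not. All differences below are log2 fold changes with standard errors (SE) from 1 edgeR quasi-likelihood fit over the 12121 genes tested, with Benjamini-Hochberg adjusted p. A gene was called at an adjusted p under 0.05.

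In all, 3 of the 8 tested members were called in a diet comparison: Ccl24 was higher on zero fiber, Ccl4 was higher on HAMSAB, and Cxcl16 was higher on HAMSAB than on control. In HAMSAB against zero fiber averaged over the genotypes, 2 of 8 members were called, Ccl4 higher and Ccl24 lower, where 0.916% of all tested genes were called. Of the 8, 7 had a fold change above 0, with a median of 0.33, against 52.3% of all tested genes above 0 with a median of 0.01. In HAMSAB against control 2 of 8 were called, Ccl4 and Cxcl16, each higher, where 4.43% of all genes were called. In zero fiber against control only Ccl24 was called, and it was higher, where 0.446% of all genes were called. The 3 comparisons share their diet groups and are not independent of each other.

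**Figure D2:**
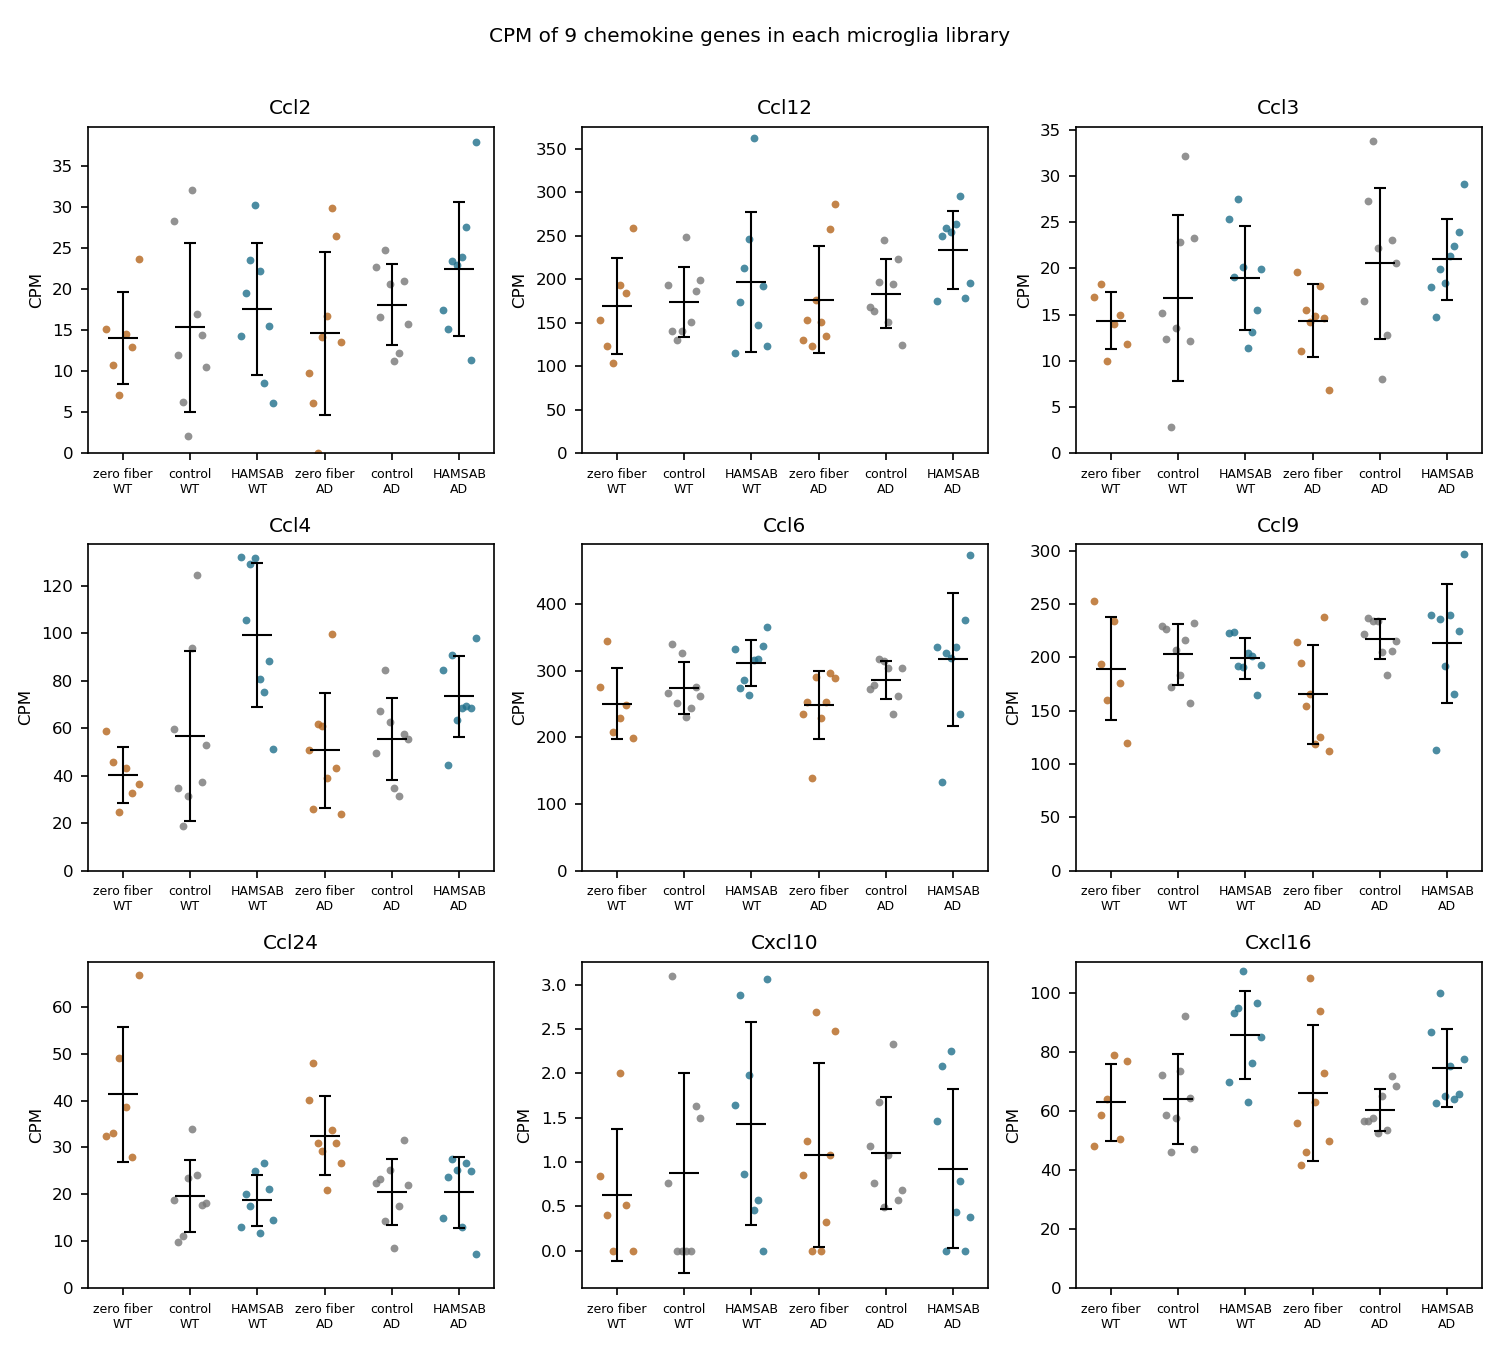
CPM of each gene in every library (points) by diet and genotype, with the mean and SD of the group (black; 6 libraries in zero fiber WT, 8 in the other groups). Ccl24 has its highest means, 41.3 and 32.5 CPM, in the zero fiber groups, and Ccl4 reaches its highest mean, 99.2 CPM, in HAMSAB WT.

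Ccl24, an attractant of eosinophils that macrophages can make, had its 2 highest group means on zero fiber. In zero fiber WT its lowest, median and highest values were 27.9, 35.9 and 66.6 CPM (mean 41.3 ± 14.4, SD, n = 6). In HAMSAB WT they were 11.8, 18.9 and 26.8 CPM (18.8 ± 5.46, n = 8). All 8 HAMSAB WT libraries lay below the lowest zero fiber WT library, so these groups did not overlap. How many of all tested genes part these groups in the same way was not counted.

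In control WT the Ccl24 values ran from 9.97 to 33.8 CPM with a median of 18.5 (19.7 ± 7.63, n = 8), and 3 of the 6 zero fiber WT libraries lay above the highest of them. In AD microglia the lowest, median and highest values were 20.9, 30.9 and 48.1 CPM in zero fiber (32.5 ± 8.33), 8.60, 22.2 and 31.6 CPM in control (20.6 ± 7.02) and 7.29, 24.3 and 27.5 CPM in HAMSAB (20.4 ± 7.55; SD, n = 8 for each). The AD groups overlapped: 7 of 8 zero fiber AD libraries lay above the control AD median and 3 above its highest library. Zero fiber AD replicate 3 had only 2 reads of Ccl24.

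Ccl24 was 2.20-fold lower in HAMSAB than in zero fiber WT microglia (log2 −1.14 ± 0.25, adjusted p = 0.0184), a comparison with 2 of 8 members called beside 1.34% of all genes. Averaged over the genotypes it fell by 0.91 ± 0.18 in HAMSAB against zero fiber (adjusted p = 0.00534). It rose by 0.89 ± 0.18 in zero fiber against control (adjusted p = 0.0182). Between HAMSAB and control the difference was −0.02 ± 0.17 (adjusted p = 0.987).

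Within 1 genotype, zero fiber against control gave 1.11 ± 0.25 in WT (adjusted p = 0.131) and 0.68 ± 0.25 in AD (adjusted p = 0.295), neither past the threshold. In AD, HAMSAB against zero fiber gave −0.68 ± 0.25 (adjusted p = 0.292). The test of the AD against WT difference in HAMSAB against zero fiber gave 0.46 ± 0.36 for Ccl24 (adjusted p = 0.799). Without zero fiber WT replicate 3, which leaves 1 male library in that group, the adjusted p rose to 0.216 in WT, to 0.0556 in the averaged HAMSAB against zero fiber and to 0.0895 in zero fiber against control. Without zero fiber WT replicate 1 or HAMSAB WT replicate 1, the WT adjusted p was 0.0745 or 0.0514.

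Library titles carry numbers under 2900 (23 libraries) or from 2900 up (22), and 1 carries 000. The 2 ranges were treated as possible batches, although the labels do not call them so, and zero fiber AD replicate 3 was left out of the values within them. Control WT has 1 library below 2900 and 7 from 2900 up, so the control WT side of every value below 2900 is a single library. Within the ranges the averaged Ccl24 difference in mean log2 CPM of zero fiber against control was 0.92 and 0.90. That of HAMSAB against zero fiber was −1.02 below 2900 and −0.58 from 2900 up, and in AD alone −0.91 (5 against 3 libraries) and −0.09 (2 against 4). By labelled sex, HAMSAB against zero fiber was −1.03 in female and −0.81 in male libraries.

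Markers of other cells also differed in mean between some of these groups. Summed CPM of 10 perivascular macrophage markers averaged 269 ± 44.1 in zero fiber WT and 293 ± 108 in zero fiber AD, against 233 ± 51.8 and 285 ± 87.9 in control and 234 ± 20.03 and 194 ± 22.5 in HAMSAB. The sums ran from 213 to 319 in zero fiber WT, 182 to 479 in zero fiber AD, 155 to 316 in control WT, 163 to 390 in control AD, 188 to 253 in HAMSAB WT and 168 to 217 in HAMSAB AD. All 10 had reads in every group. Of the 9 tested, edgeR called 0 in the 3 averaged diet comparisons. In the averaged HAMSAB against zero fiber, 2 of 9 had an unadjusted p under 0.05, beside 13.1% of all genes. DESeq2 called 1 there, Mrc1, the mannose receptor. In HAMSAB against control in AD, 8 of the 9 had an unadjusted p under 0.05, beside 15.1% of all genes, and edgeR and DESeq2 called 0. There Ccl24 gave 0.00 ± 0.25 (adjusted p = 0.999). Summed CPM of 5 red blood cell genes ran from 65.6 to 684 in zero fiber WT and from 21.6 to 423 in zero fiber AD, against 24.8 to 103 in control WT, 1.97 to 136 in control AD, 8.88 to 140 in HAMSAB WT and 1.70 to 157 in HAMSAB AD. In zero fiber against control averaged, 4 of the 4 tested red blood cell genes were called, all higher, beside 0.446% of all genes. Among them was Hba-a1, an alpha-globin (2.52 ± 0.48, adjusted p = 0.0178), whose reads may be shared with the near-identical Hba-a2. In HAMSAB against zero fiber averaged, 3 of the 4 were called, all lower, such as Hba-a1 (−2.33 ± 0.46, adjusted p = 0.00768), beside 0.916% of all genes. Sums of 8 neutrophil markers averaged 6.38 CPM in zero fiber WT and 4.65 in zero fiber AD, against 3.22 and 1.53 in control and 1.87 and 1.12 in HAMSAB, and sums of 8 monocyte markers averaged at most 8.79 CPM in any group. In HAMSAB against zero fiber averaged, the 2 neutrophil markers and the 1 monocyte marker tested had an unadjusted p under 0.05, beside 13.1% of all genes. For these markers edgeR and DESeq2 called 0. The part of these cells in the Ccl24 result was not tested.

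Ccl4 (MIP-1 beta) and Ccl3 (MIP-1 alpha) are neighbouring genes whose products attract monocytes and T cells. Ccl4 ran from 24.9 to 58.7 CPM in zero fiber WT with a median of 39.8 (mean 40.3 ± 11.7, SD, n = 6). In HAMSAB WT it ran from 51.3 to 132 CPM with a median of 96.9 (99.2 ± 30.2, n = 8). In HAMSAB WT, 7 of the 8 libraries were above the highest zero fiber WT library, and replicate 8 lay within its range.

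Control WT was the most scattered group for Ccl4, from 18.9 to 125 CPM around a median of 45.1 (56.7 ± 35.8, n = 8). In AD the lowest, median and highest Ccl4 values were 24.1, 47 and 99.6 CPM in zero fiber (50.7 ± 24.3), 31.5, 56.7 and 84.3 CPM in control (55.4 ± 17.1) and 44.4, 69.0 and 98.2 CPM in HAMSAB (73.5 ± 17.1; n = 8 for each). Each pair of AD diets overlapped, and 7 of 8 HAMSAB AD libraries lay above the zero fiber AD median.

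Ccl4 was 2.47-fold higher in HAMSAB than in zero fiber WT (log2 1.30 ± 0.31, adjusted p = 0.0250). Averaged over the genotypes it rose by 0.95 ± 0.21 against zero fiber (adjusted p = 0.0170) and by 0.64 ± 0.19 against control (adjusted p = 0.0385). In AD alone the difference from zero fiber was 0.59 ± 0.28 (adjusted p = 0.463). The test of the AD against WT difference gave −0.72 ± 0.41 (adjusted p = 0.675).

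The averaged call against control was the least stable: it held in 14 of 32 fits that each left out 1 library, with adjusted p between 0.0172 and 0.0746, and the highest value came without HAMSAB WT replicate 1. It was also lost with a term for the title numbers and with no filter on low counts, where the adjusted p reached 0.141. The call against zero fiber averaged over the genotypes was lost in 1 of 30 such fits, without zero fiber WT replicate 3 (adjusted p = 0.125). In WT alone it was lost without any 1 of zero fiber WT replicates 1, 3 and 5 and HAMSAB WT replicates 1 and 4, with adjusted p from 0.0507 to 0.301. Within the title numbers below 2900 and from 2900 up, the averaged Ccl4 difference from zero fiber was 1.05 and 0.80, and that from control was 0.50, with the single control WT library of that range, and 0.62.

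Ccl3, the neighbour of Ccl4, was not called in any comparison. Its group medians were 14.5, 14.4 and 19.5 CPM in WT and 14.7, 21.4 and 20.6 CPM in AD, for zero fiber, control and HAMSAB in that order. All 8 HAMSAB AD libraries lay above the zero fiber AD median and 5 above its highest library. Averaged over the genotypes, Ccl3 gave 0.51 ± 0.19 in HAMSAB against zero fiber (adjusted p = 0.209), −0.44 ± 0.19 in zero fiber against control (adjusted p = 0.295) and 0.07 ± 0.16 in HAMSAB against control (adjusted p = 0.847). The first passed the threshold when no low-count filter was used (adjusted p = 0.0309) and when only the libraries compared were fitted (adjusted p = 0.0409).

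Cxcl16, a membrane-bound chemokine that also acts as a scavenger receptor and is shed by ADAM10, was the third called member. In HAMSAB WT it ran from 63.3 to 108 CPM with a median of 89.2 (mean 85.9 ± 15.01), and in control WT from 46.1 to 92.5 CPM with a median of 61.6 (64.1 ± 15.3; SD, n = 8 for each). In HAMSAB AD it ran from 62.8 to 100 CPM with a median of 70.8 (74.8 ± 13.3), and in control AD from 52.7 to 72.0 CPM with a median of 57.4 (60.4 ± 7.18). In each genotype the groups overlapped, all 8 HAMSAB libraries were above the control median and 4 were above the highest control library.

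Cxcl16 rose by 0.37 ± 0.10 in HAMSAB against control averaged over the genotypes, 1.29-fold (adjusted p = 0.0207), and the call held in 32 of 32 fits that each left out 1 library. Within 1 genotype it was 0.43 ± 0.14 in WT (adjusted p = 0.140) and 0.30 ± 0.14 in AD (adjusted p = 0.279), where edgeR called 0 of 8 members beside 0.239% and 0.107% of all genes. DESeq2 and limma voom also called 0 there. At an unadjusted p under 0.05 there were 2 members in WT, Ccl4 and Cxcl16, and 1 in AD, Cxcl16, beside 13% and 15.1% of all genes. On zero fiber it ran from 48.2 to 79.2 CPM in WT and from 41.9 to 105 CPM in AD, with zero fiber AD replicates 4 and 6 at 105 and 93.9 CPM. Against zero fiber the averaged difference was 0.29 ± 0.10 (adjusted p = 0.198), and without zero fiber AD replicate 4 it was 0.42 ± 0.10 (adjusted p = 0.0125). In WT the difference from zero fiber was 0.48 ± 0.15 (adjusted p = 0.0973), and it passed with no low-count filter and in limma voom (lowest adjusted p = 0.038).

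A neuronal marker was called in the comparison that held the Cxcl16 call, and also in zero fiber against control. Summed CPM of 6 neuronal markers averaged 18.7 ± 8.97 in HAMSAB WT and 14.2 ± 8.40 in HAMSAB AD, against 10.8 ± 4.53 and 8.97 ± 3.76 in control (SD, n = 8 for each). The sums ran from 9.68 to 34.6 and from 5.27 to 33.5 in HAMSAB, and from 3.49 to 16.4 and from 3.06 to 12.6 in control. Of the 4 tested, edgeR called 1, Syt1, a calcium sensor of synaptic vesicles, higher in HAMSAB against control (1.83 ± 0.44, adjusted p = 0.0129), beside 4.43% of all genes. Syt1 was also called higher in zero fiber against control (2.02 ± 0.44, adjusted p = 0.0252), beside 0.446% of all genes. In that comparison Cxcl16 gave 0.08 ± 0.10 (adjusted p = 0.816). The part of neuronal RNA in the Cxcl16 result was not tested.

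By labelled sex, Cxcl16 in HAMSAB against control differed in mean log2 CPM by 0.63 in male and 0.10 in female libraries, and Ccl4 by 1.01 and 0.39. The female minus male difference of that contrast, tested after these values were seen, was −0.54 ± 0.19 for Cxcl16 (unadjusted p = 0.0076, adjusted p = 0.508) and −0.61 ± 0.37 for Ccl4 (adjusted p = 0.664). In edgeR it passed for 0 of 8 members and 0 of the 12121 genes (0%), with Cxcl16 the 1 member at an unadjusted p under 0.05. In the other 2 diet comparisons the female minus male difference gave 0 of 8 members, beside 0.00825% of all genes in each, with 0 at an unadjusted p under 0.05. Most male HAMSAB libraries were in the lower range of title numbers, and most male control libraries in the upper range. Female libraries of both diets were spread over both ranges. The sex difference in HAMSAB against control was therefore not separated from the title range, and was not tested with a term for it.

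**Figure D3:**
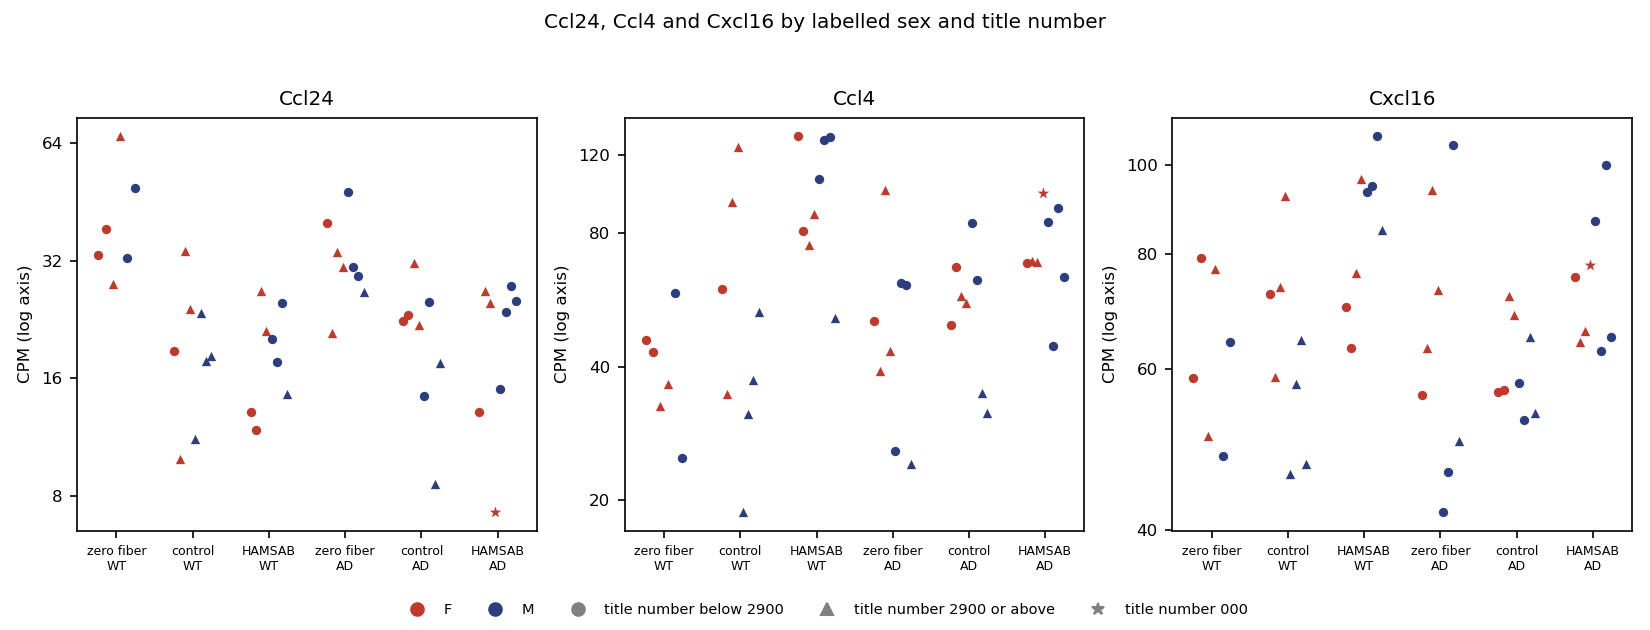
CPM (log axis) of Ccl24, Ccl4 and Cxcl16 in every library by diet and genotype, coloured by labelled sex, with the marker showing the range of the title number. The 4 male HAMSAB WT libraries of Cxcl16 lie between 85.1 and 108 CPM, above the 4 male control WT libraries. Those control libraries are all in the upper title range, and most of those HAMSAB libraries are in the lower. In WT, Cxcl16 in HAMSAB against control differed in mean log2 CPM by 0.82 in male and 0.04 in female libraries. How many of all tested genes part the male groups in this way was not counted.

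Ccl2 and Ccl12, the ligands of CCR2, were not called in any diet comparison. Ccl2 was the most variable tested member in control WT, from 2.14 to 32.1 CPM around a median of 13.2, and zero fiber AD replicate 3 had 0 reads, which at its depth allows up to 46.4 CPM (3 counts). Averaged over the genotypes, HAMSAB against zero fiber gave 0.49 ± 0.23 for Ccl2 (adjusted p = 0.338) and 0.35 ± 0.16 for Ccl12 (adjusted p = 0.321). Below 2900 and from 2900 up, that difference in mean log2 CPM had opposite signs, 0.94 and −0.53 for Ccl2 and 0.60 and −0.15 for Ccl12, and the difference between the ranges was not tested. Ccl12 ran from 104 to 363 CPM over all libraries, and its highest group mean was in HAMSAB AD (234 ± 44.8 CPM, SD, n = 8) against 176 ± 61.7 in zero fiber AD. In HAMSAB AD, 5 of the 8 libraries were above the highest control AD library, and HAMSAB against control in AD gave 0.35 ± 0.20 (adjusted p = 0.418).

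Ccl6 and Ccl9, the CCR1 ligands, had the lowest coefficients of variation of the members in control WT, control AD and HAMSAB WT, such as 11% and 9.56% in HAMSAB WT. Ccl6 group medians were 239, 264 and 316 CPM in WT and 253, 291 and 330 CPM in AD, for zero fiber, control and HAMSAB in that order. All 8 HAMSAB WT libraries were above the zero fiber WT median, and the groups overlapped. The averaged difference of HAMSAB against zero fiber was 0.30 ± 0.10 for Ccl6 (adjusted p = 0.181), and it passed without HAMSAB AD replicate 2 (0.36 ± 0.09, adjusted p = 0.0296) and with no low-count filter (adjusted p = 0.0205). That replicate was the lowest of its group for Ccl6 (133 CPM) and Ccl9 (113 CPM), and HAMSAB AD replicate 8 was the highest for both (473 and 297 CPM).

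Ccl9 was not called in any comparison. In WT, HAMSAB against zero fiber gave 0.04 ± 0.16 (adjusted p = 0.989). In AD that comparison gave 0.36 ± 0.15 (adjusted p = 0.380), and zero fiber against control gave −0.40 ± 0.15 (adjusted p = 0.325), with 5 of 8 zero fiber AD libraries below the lowest control AD library. The AD against WT difference of HAMSAB against zero fiber was 0.32 ± 0.22 for Ccl9 (adjusted p = 0.765).

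**Figure D4:**
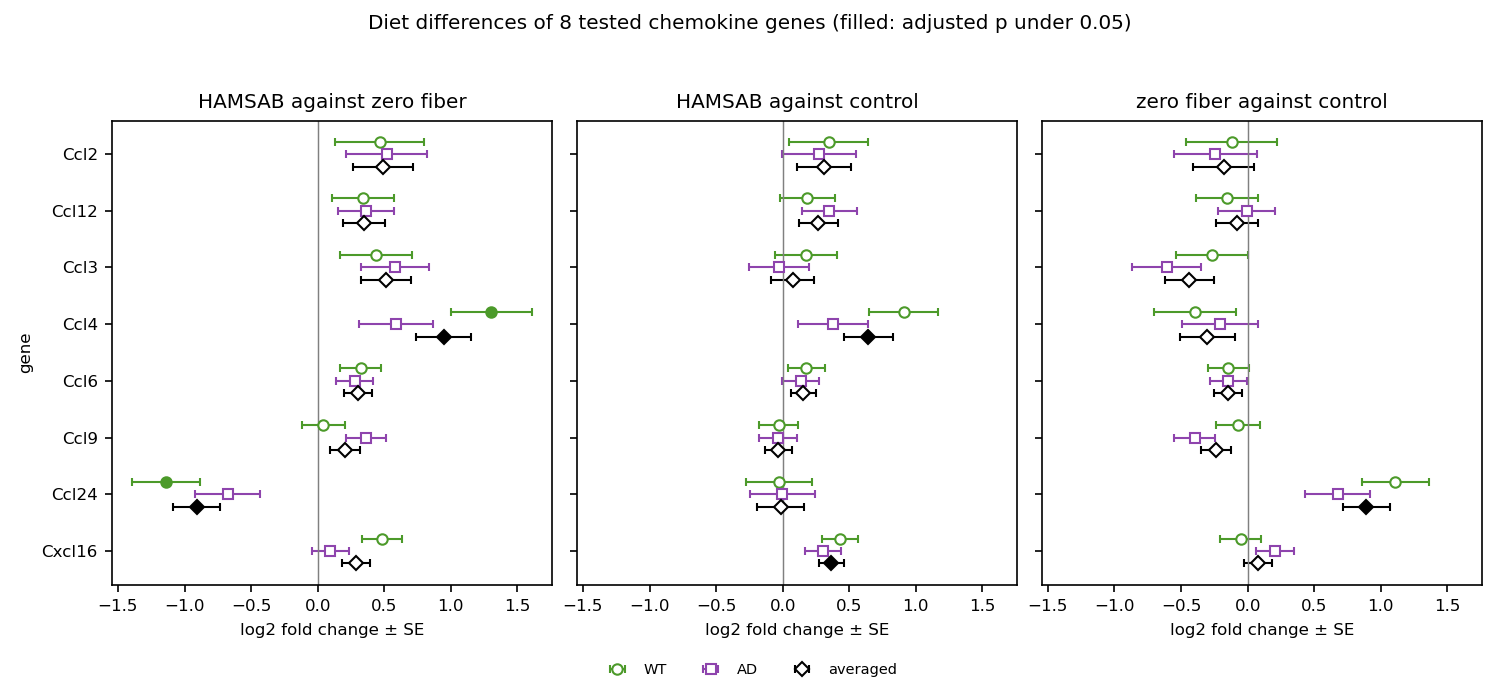
Log2 fold change with SE of the 8 tested members in 3 diet comparisons, in WT (circles), AD (squares) and averaged over both (diamonds), filled where the adjusted p is under 0.05. Ccl24 lies left of 0 in HAMSAB against zero fiber and right of 0 in zero fiber against control, and Ccl4 lies right of 0 in both HAMSAB comparisons.

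Cxcl10, an interferon-induced ligand of CXCR3, was near the limit of detection. It had reads in 35 of 46 libraries, at most 11 reads in 1 library, and 0 reads in 11, which allows up to 0.811 CPM or more depending on depth (3 counts). Its group means ran from 0.628 ± 0.748 CPM in zero fiber WT (n = 6) to 1.43 ± 1.15 CPM in HAMSAB WT (SD, n = 8). With no filter on low counts, HAMSAB against zero fiber gave 0.33 ± 0.49 averaged over the genotypes (adjusted p = 1) and 1.08 ± 0.73 in WT (adjusted p = 0.942), and a difference was not detectable at this depth.

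In the 250 bases before its start, Cxcl10 held matches to 3 motifs, and the window is printed because Cxcl10 is the member known as interferon-induced. It is chr5:92348890-92349139 on the minus strand (RefSeq, GRCm38.p6), 5′ to 3′, with the matches in capitals.
Cxcl10 promoter: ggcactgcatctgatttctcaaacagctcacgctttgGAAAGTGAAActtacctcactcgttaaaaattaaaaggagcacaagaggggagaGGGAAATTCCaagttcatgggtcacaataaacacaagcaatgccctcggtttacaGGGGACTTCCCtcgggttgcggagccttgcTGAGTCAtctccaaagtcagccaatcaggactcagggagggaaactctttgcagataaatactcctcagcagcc
The matches are, from the 5′ end, an interferon-stimulated response element (GAAANNGAAA), the NF-kB motif at 2 places, of which the second holds overlapping matches, and AP-1 (TGANTCA), searched on both strands. Of 32841 promoters of that length, 2.98% held the first, 7.25% NF-kB and 6.75% AP-1. RefSeq promoters were matched for 5 of the 9 members. Ccl9 held an NF-kB and an AP-1 match, and Ccl3, Ccl6 and Ccl12 held none of the 3.

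No member was called between AD and WT. On zero fiber, control and HAMSAB, AD against WT gave 0 of 8 members called in the edgeR test, beside 0.00825%, 0% and 1.16% of all genes, and averaged over the diets 0 of 8, beside 0.0165%. No member had an unadjusted p under 0.05 in these 4 comparisons, beside 4.41%, 5.02%, 11.8% and 7% of all genes in that order. DESeq2 and limma voom also called 0. The difference of largest size was −0.46 ± 0.26 for Ccl4 on HAMSAB (adjusted p = 0.509), where the AD mean was 73.5 and the WT mean 99.2 CPM. Averaged over the diets, Ccl2 gave 0.31 ± 0.18 (adjusted p = 0.773).

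Diet comparisons within AD also gave 0 calls, in the edgeR test of HAMSAB against zero fiber beside 0.182% and of zero fiber against control beside 0% of all genes. At an unadjusted p under 0.05 there were 4 of 8 members (Ccl3, Ccl4, Ccl9 and Ccl24) and 3 of 8 (Ccl3, Ccl9 and Ccl24), beside 10.4% and 10.7% of all genes. DESeq2 and limma voom called 0. In WT, zero fiber against control gave 0 of 8 beside 0.00825%, with 1 at an unadjusted p under 0.05 (7.33% of all genes), Ccl24, which DESeq2 called. The 3 tests of a genotype difference in a diet effect called 0 of 8, beside 0.677%, 0% and 0% of all genes, and 0 by DESeq2. At an unadjusted p under 0.05 there were 0 members, beside 9.26%, 5.34% and 6% of all genes. Between the labelled sexes, with zero fiber AD replicate 1 kept as female, edgeR called 0 of 8 beside 0.124%, as did DESeq2. Ccl2, with a female minus male difference of 0.42 ± 0.18 (adjusted p = 0.394), was the 1 member with an unadjusted p under 0.05, beside 10.4% of all genes.

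From library to library, members were related in some pairs and not in others. Over the 45 libraries of at least 100000 counts, 26 of the 36 pairs were positive, and 9 had a Pearson correlation of log2 CPM with an adjusted permutation p under 0.05, and 9 by Spearman's rho. Points share library depth, cell makeup and diet. Ccl3 and Ccl4 were the closest pair, with r = 0.756 (permutation p = 1e-05, the smallest the resampling can give; adjusted p = 0.00012) and rho = 0.725, and r = 0.702 without the 2 libraries farthest from the median. On deviations from the 12 means of diet, genotype and sex their r was 0.765, and it was 0.671 and 0.788 within the title numbers below 2900 and from 2900 up.

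Ccl4 was also related to Cxcl16 (r = 0.667, rho = 0.638, each with adjusted permutation p = 0.00018) and to Ccl2 (r = 0.597, rho = 0.602, adjusted permutation p = 0.00012 and 0.00018), with r = 0.618 and 0.619 without the 2 farthest libraries and 0.483 and 0.538 on deviations from the 12 means. Ccl2 and Ccl12 gave r = 0.589 (rho = 0.615, adjusted permutation p = 0.00022 and 0.00018), and Ccl6 and Ccl9 r = 0.594 (rho = 0.458, adjusted permutation p = 0.00012 and 0.0093). The pair Ccl6 and Ccl9 gave r = 0.431 without the 2 farthest libraries. On deviations Ccl2 and Ccl12 gave 0.654 and Ccl6 and Ccl9 0.619. Weaker pairs that also passed were Ccl2 and Ccl3 (r = 0.452), Ccl2 and Cxcl16 (0.42), and Ccl3 and Ccl9 (0.432). Their adjusted permutation p for r was 0.014, 0.015 and 0.015, and their r on deviations was lower, at 0.183, 0.295 and 0.335. Ccl24 stood against Ccl6, with r = −0.512 (rho = −0.468, adjusted permutation p = 0.0021 and 0.0093), −0.527 without the 2 farthest libraries, −0.407 on deviations, and −0.430 and −0.445 within the 2 title ranges.

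The relation of Ccl24 to Ccl4 had opposite signs in the 2 title ranges. It was r = −0.718 in the 22 libraries numbered below 2900 and 0.349 in the 22 numbered from 2900 up, with a pooled r of −0.168 (rho = −0.152, permutation p = 0.27 and 0.32) and 0.184 on deviations. Ccl2 and Ccl24 likewise gave −0.697 and 0.497. The difference between the ranges was not tested.

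**Figure D5:**
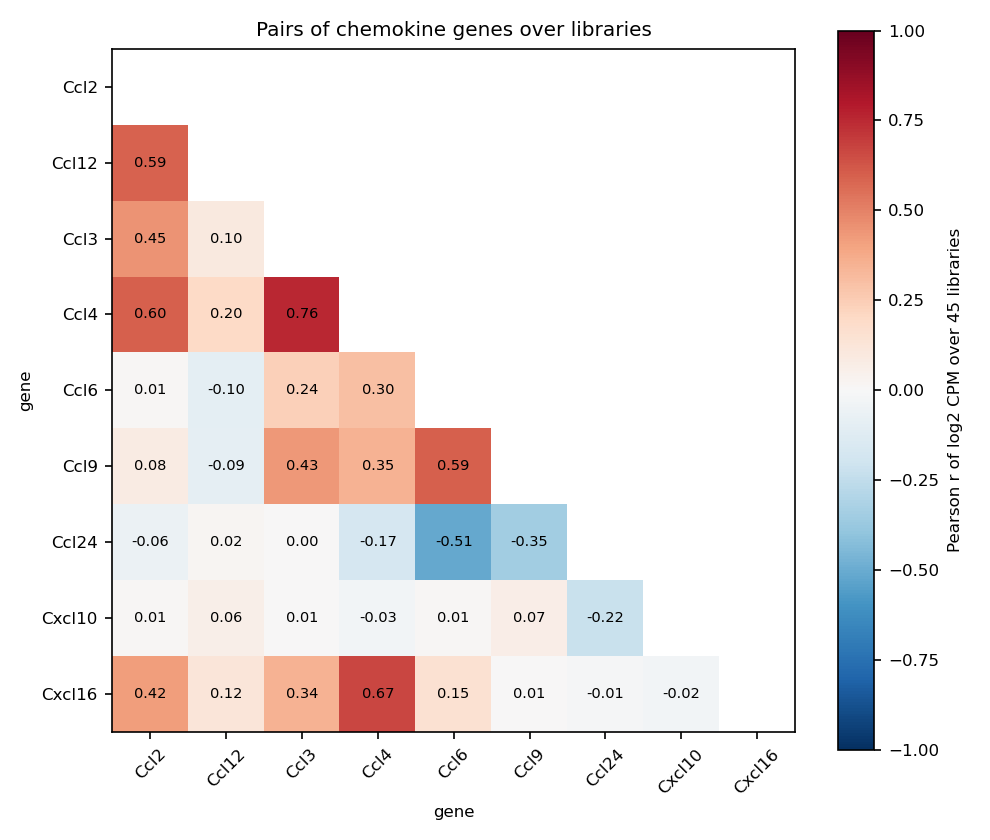
Pearson r of log2 CPM for each of the 36 pairs of chemokine genes over 45 libraries, with colour and number giving r. Ccl3, Ccl4, Cxcl16 and Ccl2 form positive pairs, and Ccl24 is negative with Ccl6 (−0.51) and Ccl9 (−0.35).

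The genes whose levels followed each member most closely were ranked by Spearman's rho over the same 45 libraries, among 10141 candidate genes. Ccl4 was closest to Itgax (rho = 0.756), an integrin of activated microglia, Egr3 (0.755), an immediate early transcription factor, and Clec7a (0.752), the beta-glucan receptor dectin-1. Ccl3 was closest to Clec7a (0.675), Lgals3 (0.601) and Egr3 (0.563), and Ccl2 to Egr2 (0.649), Egr3 (0.641) and Gprasp2 (0.562). Cxcl16 was closest to Mrfap1 (0.711), Ss18l2 (0.7) and Cd9 (0.695). For Ccl6 they were Pcp4 (0.592), Ighm (0.565) and Ramp1 (0.545), for Ccl9 Mtf1 (0.499), Fhit (0.474) and Ctsd (0.467), and for Ccl12 Sar1a (0.562), H2-K1 (0.543) and Ift27 (0.534). For Cxcl10, with few reads, they were Trim47 (0.627), Zkscan1 (0.578) and Slc39a6 (0.577).

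Ccl24 was closest to Mlxipl (0.698), Bcl7b (0.614) and Madd (0.597). Mlxipl, a carbohydrate-responsive transcription factor, and Bcl7b, a chromatin remodelling subunit, lie 431.6 and 388.1 kb from Ccl24 on chromosome 5. Of the 57 tested genes within 2 Mb of Ccl24, those 2 had a rho above 0.5, against 0.223% of 12113 tested genes. The window was chosen after these ranks were seen, so this count is not a test of the neighbourhood. In windows of the same size, Cxcl10 had 1 of 22 genes above 0.5 (Cxcl9, 0.53) and Cxcl16 1 of 83 (Eif4a1, 0.606). The remaining members had 0. Bcl7b was called lower in HAMSAB against zero fiber (−0.26 ± 0.07, adjusted p = 0.0483), and Mlxipl gave −0.22 ± 0.08 (adjusted p = 0.178). Madd lies on chromosome 2.

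Other genes of the pathway were taken from fixed lists. Of 28 other chemokine ligands 7 passed the filter, and Ccl5 (RANTES), an attractant of T cells, was called higher in HAMSAB against zero fiber averaged over the genotypes (1.24 ± 0.27, adjusted p = 0.0173), where 0.916% of all genes were called. Ccl5 averaged 8.15 ± 6.14 CPM in zero fiber WT and 18.4 ± 4.57 CPM in HAMSAB WT, and 7.73 ± 6.33 and 21.8 ± 9.999 CPM in AD. The others of highest mean level, Ccl25 (14.9 CPM) and Pf4 (8.22 CPM), were not called by edgeR in the averaged diet comparisons. In HAMSAB against control in AD, Pf4 gave −1.28 ± 0.30 (adjusted p = 0.0557), and DESeq2 called it.

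Of 23 chemokine receptors 10 were tested, and edgeR and DESeq2 called 0 in the averaged diet and genotype comparisons. At an unadjusted p under 0.05 there were 4 of 10 in HAMSAB against control, beside 21.8% of all genes. In zero fiber against control there were 2, beside 12.8%. There was 1 in HAMSAB against zero fiber, beside 13.1%, and 1 in AD against WT, beside 7%. Among the receptors of highest level were Cx3cr1 (7587 CPM), the fractalkine receptor that marks microglia, and Ccr1 (84.8 CPM), which binds Ccl3, Ccl6 and Ccl9. Cx3cr1 gave −0.18 ± 0.07 in HAMSAB against control (unadjusted p = 0.00811, adjusted p = 0.0921). Ccr1 gave 0.00 ± 0.17 in HAMSAB against zero fiber (adjusted p = 1) and 0.35 ± 0.16 in HAMSAB against control (adjusted p = 0.191). Of 20 genes of chemokine receptor signalling, edgeR called 1 in HAMSAB against control averaged, beside 4.43% of all genes. At an unadjusted p under 0.05 there were 9, beside 21.8% of all genes. The called gene was Grk2, a kinase that desensitizes receptors, which was lower (−0.29 ± 0.08, adjusted p = 0.0299), and DESeq2 called 1 and limma voom 2. In zero fiber against control averaged, edgeR called 0, with 4 of 20 at an unadjusted p under 0.05 (12.8% of all genes), and DESeq2 called Gnai2, an inhibitory G protein subunit. Of 8 genes of chemokine shedding and cleavage 6 were tested, and edgeR and DESeq2 called 0 in the 3 averaged diet comparisons. At an unadjusted p under 0.05 there were 1 or 2, beside 12.8% to 21.8% of all genes. In HAMSAB against zero fiber in WT, edgeR called 0, with 2 of 6 at an unadjusted p under 0.05 (11.7% of all genes), and DESeq2 called Adam10.

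Lists of genes known to be induced with chemokines held called genes in HAMSAB against zero fiber averaged over the genotypes, where 0.916% of all tested genes were called. Of 15 interferon-induced genes 7 were called, all higher, with a list median of 0.76 beside 0.01 over all genes. Slfn2 rose by 0.87 ± 0.15 (adjusted p = 0.0012), Rtp4 by 1.0 ± 0.20 (adjusted p = 0.00906) and Ifit3 by 1.14 ± 0.26 (adjusted p = 0.0208). Of 13 tested genes of the disease-associated microglia list 4 were called, all higher: Itgax (1.80 ± 0.26, adjusted p = 2.69e-05), Axl (1.22 ± 0.18, adjusted p = 9.34e-05), Ctsb (0.37 ± 0.08) and Cd9 (0.46 ± 0.11). Of 13 tested inflammatory cytokine and NF-kB feedback genes only Csf1, a growth factor of microglia, was called (0.50 ± 0.11, adjusted p = 0.0167). Of 14 tested immediate early and heat shock genes Egr2 rose (1.42 ± 0.35, adjusted p = 0.0293) and Jun fell (−0.37 ± 0.09, adjusted p = 0.0351). These lists and the members were measured in the same libraries, and the lists were chosen with earlier results of these data known. The counts of called genes beside all genes are therefore no independent result. Summed CPM of the interferon-induced list averaged 433 ± 58.0, 610 ± 269 and 648 ± 221 in WT for zero fiber, control and HAMSAB. In AD the sums averaged 383 ± 95.5, 503 ± 93.9 and 688 ± 170 in the same order (SD).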

How the data were processed

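RNA-seq of 46 mouse microglia libraries was analysed. The values are raw counts per gene symbol, deposited without normalization. Per the labels' protocols, microglial RNA was prepared with RNeasy Micro kits (QIAcube) for standard Illumina libraries. Per the submitters' processing notes, STAR 2.5.2b, featureCounts 1.5.2 and GRCm38 were used. The annotation release is not given in the sources used here.

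Counts were fitted with edgeR 4.0.16 (R 4.3.3; TMM factors, filterByExpr, robust quasi-likelihood fit, 12 means of diet, genotype and sex, 12121 genes), and 17 comparisons weighted the sexes equally. Log2 CPM has a prior count of 2. Pairs of members were tested with 100000 permutations, two-sided. Of 155 library pairs within groups, 0 were identical, and chi-square divided by its degrees of freedom was at least 1.62. The scripts were tested on simulated data.

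Alternatives were DESeq2 1.42.0 size factors and test, limma 3.58.1 voom, no low-count filter, a term for the title number, only the libraries compared, and leaving out libraries. A fit without robust estimation and the sex difference of the diet contrasts were added after seeing the data. Named were all members, up to 4 called genes per list and comparison by p, the 3 other ligands and receptors of highest level (1 receptor and 1 sequence are not reported here), and the 3 genes closest to each member (mean log2 CPM from 1 up, no predicted or mitochondrial genes). Mrc1, Gnai2, Adam10, and the distances and fold changes of Mlxipl and Bcl7b, were chosen after their values were seen. The members and lists were chosen with earlier results of these data known. Coordinates and transcripts come from GENCODE M21 and promoters from RefSeq.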

Additional observations from a re-analysis of the deposited data

Results flagged for a closer look

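In 54 sets of 1 member in 1 group, the highest and lowest library were compared with the rest of the group, and 1 set had a library apart. Ccl6 in zero fiber AD replicate 3 stood at 139.1 CPM, below the other 7 libraries of its group, the nearest of which was at 229.5 CPM. The gap was 0.573 of the range, above Dixon's 95% limit for 8 libraries. This library has the lowest depth, and its value rests on 9 reads of Ccl6. Chance alone would mark about 1 in 20 such sets.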

How the results depend on the processing

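Of 28 fold changes of members with an unadjusted p under 0.05, none changed sign in the 864 values under other settings, which do not include the values within the title ranges. In HAMSAB against zero fiber averaged over the genotypes, 4 members instead of 2 were called with no low-count filter (Ccl3 and Ccl6 joined), and leaving out 1 library gave 0 to 3. In HAMSAB against control averaged, 1 instead of 2 was called with no low-count filter and 1 with a term for the title number, and leaving out 1 library gave 1 to 2. In HAMSAB against zero fiber in WT leaving out 1 library gave 0 to 2 instead of 2 (3 with no low-count filter and with limma voom), in zero fiber against control averaged 0 to 1 instead of 1, and in HAMSAB against control in WT 0 to 1 instead of 0, with 1 (Ccl4) only without HAMSAB WT replicate 8. In zero fiber against control in WT, 1 instead of 0 was called with no low-count filter and 1 with the DESeq2 test. The number of genes called over the whole table moved more over the 8 alternatives. In HAMSAB against zero fiber averaged it ran from 83 to 202, with 111 in the main fit. In HAMSAB against control averaged it ran from 368 to 717 (main fit 537), and in zero fiber against control averaged from 19 to 180 (54). In HAMSAB against zero fiber in WT it ran from 185 to 329, each above the 162 of the main fit, and in AD from 21 to 70 (22). In AD against WT on HAMSAB it ran from 114 to 358 (140). The cause was not tested. Without zero fiber AD replicates 1 and 3, the averaged adjusted p of Ccl24 was 0.0139 against zero fiber and 0.0387 for zero fiber against control, that of Ccl4 was 0.0288 against zero fiber and 0.0432 against control, and that of Cxcl16 was 0.0209. No paired analysis was possible because the replicate numbers were given in accession order. Depth limits Cxcl10, with at most 11 reads in a library.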
